A study of Homo sapiens with 21 samples.

Results

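Open chromatin was examined at intergenic sites that lie far from any annotated start of transcription. The sites were those of the deposited consensus set that its HOMER annotation calls intergenic and places more than 50000 and at most 500000 bases from the nearest transcription start site (TSS). This rule uses position only, and it selected 98677 of 367900 sites, or 26.82% of the set. The cells were SK-N-BE(2), a widely used MYCN-amplified human neuroblastoma cell line, and the assay was ATAC-seq, where accessible DNA is tagged by a transposase. There were 7 groups of 3 libraries, 21 libraries in all. Control cells carried a non-silencing short hairpin RNA (shRNA), and the others carried shARID1A.2 or shARID1A.4 against ARID1A, shARID1B.2 or shARID1B.3 against ARID1B, or the combinations shARID1A/B.2.3 and shARID1A/B.4.2 against both genes. Cells of every group, Control included, had been transduced with lentiviral particles and were collected at 72 h. The groups share 1 cell line, and how far each hairpin lowered its target was not analysed here. The labels do not say whether the libraries of a group came from separate cultures, so p-values measure the spread between these libraries, which may be technical.

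Enhancers are regulatory sequences that can act on a gene over long stretches of DNA, and in many cell types most of them lie outside promoters. The BAF complex is a chromatin remodeller of the SWI/SNF family that uses ATP to move nucleosomes and is known to keep enhancers accessible. ARID1A and ARID1B are mutually exclusive structural subunits that occur only in BAF, so a cell that loses one can still assemble BAF with the other. In adrenergic neuroblastoma cells, distal enhancers are bound by transcription factors such as HAND2 and GATA3, which maintain the sympathetic identity of the cells.

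The libraries held 16140029 to 44472230 reads in sites, and deeper libraries carry less counting error. The chi-square statistic between replicates of a group ran from 1.08 to 2.51 per degree of freedom, with the highest values in pairs that included shARID1A/B.2.3 replicate 2, and all libraries were kept. In Control, 7 of 10 adrenergic markers had a promoter site, with 2.43 to 43.9 CPM (counts scaled to library size). Of 9 mesenchymal markers, 3 had one (TWIST1, FOSL2 and FN1), with 32.3 to 72.1 CPM. Their median was 41.2 CPM, against 23.6 CPM for the adrenergic markers with a promoter site. Of 9 markers of other cell types, only the endothelial gene CDH5 had one, at 2.08 CPM. GATA3 and ISL1 were among the markers with no site annotated to a promoter.

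Of the 98677 distal intergenic sites, 95193 (96.5%) passed the filter on low counts and were tested, and 3484 did not. A site was called closed when it was lower than in Control, and opened when it was higher. Both needed a false discovery rate (FDR) below 0.01 in the edgeR quasi-likelihood test over all 357029 tested sites of the set. The tested distal sites had a median length of 728 bases, a GC content of 45.7% and a median distance of 141 kb to the nearest TSS. They were split nearly evenly around it, with 49.0% downstream. Their median accessibility was 0.892 CPM, against 1.02 CPM over all tested sites. The nearest gene was 1 of 6047, and it need not be the gene that a site regulates. Just inside the lower limit, the site 50001 bases from CAND1.11 had a log2 change of 0.31 after combined silencing, and the site 50000 bases from BICC1, just outside, had -1.23. Just inside the upper limit, the site 499983 bases from LINC00276 had -0.18, and the site 500012 bases from LOC101929194, just outside, had 0.06.

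The word intergenic depends on the annotation. When the sites were laid over the GENCODE v44 annotation of the same build (GRCh38), 30.9% of the tested sites had their centre inside a gene and 5.22% inside a protein-coding gene. Only 3.44% were centred within 1 kb of a GENCODE transcript start, and 38.9% lay more than 50 kb from every one of them. The sites within 1 kb of a transcript start had an opened share of 3.58% (117 of 3272). That was above the 1.45% of all tested distal sites and close to the 3.43% of all tested sites of the set. Those over 50 kb from every start closed at 8.78%, against 9.41% of all tested distal sites and 10.3% of all tested sites.

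The reference sequence of the extreme sites is given first, since accessibility is a property of these stretches of DNA. Each is the plus strand of GRCh38, 5′ to 3′, and covers 300 bases around the centre of the site. Capitals mark a match to any of 10 transcription factor motifs on either strand. The site with the largest fall lies 182623 bases from the TSS of FOXD2, within chr1:47618108-47619173, and the window shown is chr1:47618491-47618790. It holds 1 match each of the E-boxes of HAND/TWIST and MYC type and of the TEAD motif, whose letters are spelled out with the motif counts.

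FOXD2: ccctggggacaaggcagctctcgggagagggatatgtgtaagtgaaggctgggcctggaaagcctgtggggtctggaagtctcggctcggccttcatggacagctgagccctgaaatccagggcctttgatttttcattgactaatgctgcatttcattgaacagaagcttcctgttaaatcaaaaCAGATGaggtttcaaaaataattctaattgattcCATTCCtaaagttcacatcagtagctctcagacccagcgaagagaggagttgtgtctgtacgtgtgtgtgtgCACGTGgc

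The next falls were at a site 287333 bases from SLC10A2 (window chr13:103354030-103354329) and at a site 102632 bases from ALDH1A2 (window chr15:57911316-57911615). The first holds matches of the GATA, RUNX and SOX motifs and of the HAND/TWIST E-box, and the second holds 1 SOX match.

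SLC10A2: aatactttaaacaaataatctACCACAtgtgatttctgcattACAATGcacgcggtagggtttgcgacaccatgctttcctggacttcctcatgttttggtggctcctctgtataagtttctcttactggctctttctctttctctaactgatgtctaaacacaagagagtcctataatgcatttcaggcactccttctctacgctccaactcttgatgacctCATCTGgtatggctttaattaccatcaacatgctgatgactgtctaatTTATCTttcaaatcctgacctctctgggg

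ALDH1A2: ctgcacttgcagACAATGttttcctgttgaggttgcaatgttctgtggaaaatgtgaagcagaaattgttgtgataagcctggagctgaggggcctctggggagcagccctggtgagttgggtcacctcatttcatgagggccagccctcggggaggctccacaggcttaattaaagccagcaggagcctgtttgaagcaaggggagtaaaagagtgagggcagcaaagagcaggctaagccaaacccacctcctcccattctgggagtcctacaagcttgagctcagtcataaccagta

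The largest rises were at a site 151934 bases from MIR3194 (window chr20:51300885-51301184), with 1 GATA match, and at a site 78897 bases from LOC102724847 (window chr16:49084721-49085020), with no match. The LOC102724847 window is a tandem repeat. Shifted by 21 bases it matched itself at 81.7% of positions, whereas the best shift of 10 to 60 bases gave 32.0% to 36.9% in the other 4 windows.

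MIR3194: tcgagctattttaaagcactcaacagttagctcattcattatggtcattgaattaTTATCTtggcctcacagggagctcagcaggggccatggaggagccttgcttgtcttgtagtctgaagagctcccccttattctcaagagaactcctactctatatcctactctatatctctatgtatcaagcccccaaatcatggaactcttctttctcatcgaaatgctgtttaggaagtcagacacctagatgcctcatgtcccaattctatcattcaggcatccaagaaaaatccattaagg

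LOC102724847: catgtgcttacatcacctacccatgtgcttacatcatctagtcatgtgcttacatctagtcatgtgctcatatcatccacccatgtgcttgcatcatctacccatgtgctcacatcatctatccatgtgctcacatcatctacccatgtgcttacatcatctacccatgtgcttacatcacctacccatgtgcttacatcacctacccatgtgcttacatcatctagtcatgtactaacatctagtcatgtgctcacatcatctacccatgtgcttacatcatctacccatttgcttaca

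Shorter stretches show the longer motifs in sites called after combined silencing, with only the match of the motif shown in capitals. The NFI motif is shown from closed sites near LOC102724253 (chr15:38879077-38879135) and LOC102724048 (chr3:34650267-34650325). Each of these stretches also holds a match of the HAND/TWIST E-box, left in small letters. The CTCF motif is shown from opened sites near SNORD12 (chr20:49334052-49334107) and LOC101929011 (chr11:116454205-116454260).

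LOC102724253: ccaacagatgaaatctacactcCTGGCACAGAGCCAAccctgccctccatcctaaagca

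LOC102724048: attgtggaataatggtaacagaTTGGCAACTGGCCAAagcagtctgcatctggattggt

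SNORD12: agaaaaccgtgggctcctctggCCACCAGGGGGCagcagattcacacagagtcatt

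LOC101929011: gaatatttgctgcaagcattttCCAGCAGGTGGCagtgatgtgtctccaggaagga

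The LOC102724253 site measured 10.4 ± 0.36 CPM in Control (SD, n = 3), and 3.86 ± 0.216 and 1.72 ± 0.113 CPM in the 2 combinations (log2 change -2.02, SE 0.11, FDR 1.43e-28). The LOC101929011 site, with the CTCF match, rose from 1.20 ± 0.273 to 2.51 ± 0.62 and 2.15 ± 0.275 CPM (log2 change 0.94, SE 0.19, FDR 4.68e-05). These 4 stretches were chosen for their motif and their change, so they illustrate the motifs and test nothing.

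The main comparison asked how these sites respond when both subunits are silenced. Averaged over both combinations, 8956 of 95193 tested distal intergenic sites closed against Control (9.41%), beside 10.3% of all tested sites. Opened sites numbered 1382 (1.45%), beside 3.43% of all tested sites. The distal sites therefore closed at close to the rate of the whole set and opened at a lower rate, and 86.6% of the called ones were closed. The median log2 change was -0.99 at the closed and 0.67 at the opened sites, against -0.93 and 0.48 over all closed and all opened sites of the set. Over all tested distal sites the median was 0.04, close to no change. In bulk cells, fewer cells with an open site and a less open site in each cell cannot be told apart. Among the closed sites, 4368 fell by 1 or more on the log2 scale, and among the opened sites 236 rose by 1 or more. The closed sites were nearest to 3147 genes and the opened ones to 994 genes, and 610 genes had both kinds. With library scaling taken from promoter sites instead, 13208 closed and 215 opened, and 98.4% of calls were then closed. That scaling moved the median log2 change of all tested sites from 0.03 to -0.20, and that of the distal sites from 0.04 to -0.19, a shift that both shared. Without Control replicate 1 the opened count was 838, and without Control replicate 3 it was 791.

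Both combinations closed many more distal sites than they opened. With shARID1A/B.2.3, 8313 closed (8.73%, beside 10.4% of all tested sites) and 2405 opened (2.53%, beside 2.85%). With shARID1A/B.4.2, 7073 closed (7.43%, beside 7.37%) and 1037 opened (1.09%, beside 3.97%). Closed sites thus made up 77.6% of the calls with the first and 87.2% with the second. Scaled on promoter sites these shares were 93.1% and 98.4%, and with abundance-trended offsets the first was 66.7%. The opened count of shARID1A/B.2.3 rested on single libraries, at 1439 without Control replicate 1, 1277 without Control replicate 3 and 1218 without its own replicate 2, the deepest library of that group.

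Silencing of a single subunit also closed distal sites. ARID1A silencing, averaged over both hairpins, closed 5039 (5.29%, beside 5.37% of all tested sites) and opened 453 (0.476%, beside 1.67%). ARID1B silencing closed 3559 (3.74%, beside 3.53%) and opened 610 (0.641%, beside 1.39%). The median change at the closed sites was -0.80 after ARID1A and -0.78 after ARID1B silencing, on the log2 scale. Scaled on promoter sites, 8495 closed and 83 opened after ARID1A silencing, and 5599 closed and 221 opened after ARID1B silencing, where the closed share of calls went from 85.4% to 96.2%. Without Control replicates 1, 2 and 3 in turn, 293, 275 and 296 sites opened after ARID1A silencing, and without Control replicate 3, 356 opened after ARID1B silencing. All these comparisons use the same 3 Control libraries.

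Combined silencing was compared with single silencing directly, without Control. Accessibility was lower after combined silencing at 5517 distal sites (5.8%, beside 6.85% of all tested sites) and higher at 870 (0.914%, beside 0.969%). The falls were smaller than those against Control, with a median of -0.60 on the log2 scale, and 427 of them reached a fall of 1. Lower sites made up 86.4% of these calls, and 75.7% with abundance-trended offsets. The higher count was 332 without shARID1A/B.2.3 replicate 2, 517 without shARID1A/B.4.2 replicate 1 and 499 without shARID1A/B.4.2 replicate 2. The combined log2 change was also set against the 2 single-subunit changes added together. The median departure from the sum was 0.108 over the tested distal sites and 0.014 over all tested sites. The combined change lay below the sum at 297 distal sites (0.312%, beside 0.376% of all tested sites) and above it at 167 (0.175%, beside 0.14%). At nearly all tested sites no departure was detected, but 84855 of the 95193 had no call after combined silencing either. Departures were not counted among the called sites alone. Scaled on promoter sites the order turned, with 127 below and 277 above, and with abundance-trended offsets it was 257 and 288. Without Control replicate 3, 159 sites lay below the sum.

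The reads of a library were also summed over all 98677 sites, tested or not. They took 18.7%, 19.9% and 18.7% of the reads in sites in the Control libraries, 17.8%, 19.3% and 18.1% with shARID1A/B.2.3, and 16.6%, 16.7% and 16.5% with shARID1A/B.4.2. The libraries of shARID1A/B.4.2 were thus below all Control libraries, whereas replicate 2 of shARID1A/B.2.3 lay inside the Control range. The mean was 17.5% ± 1.11 (SD, n = 6) in the combinations and 19.1% ± 0.679 (SD, n = 3) in Control, a difference that missed the threshold (two-sided exact permutation p = 0.0714, adjusted over 4 comparisons 0.0952). After ARID1A silencing it was 17.8% ± 0.818 (n = 6, exact permutation p = 0.0714, adjusted 0.0952), and after ARID1B silencing 18.1% ± 0.528 (n = 6, exact p = 0.0238, adjusted 0.0952), where 0.0238 is the smallest p that 6 libraries against 3 allow. The combinations and the 12 single-silencing libraries, at 17.9% ± 0.675, differed by less than their spread (exact permutation p = 0.32, adjusted 0.32). Over the same libraries, the share of reads in promoter sites was 20.0% to 20.6% in Control and 23.4% to 25.1% in the combinations, and its part in the lower distal share was not tested.

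**Figure D1:**
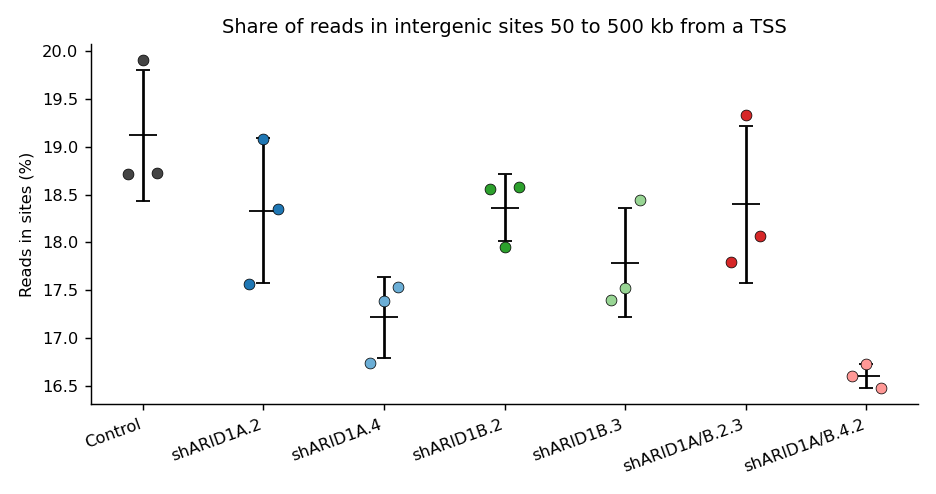
Share of all reads in sites that fell in intergenic sites 50 to 500 kb from a TSS (y axis, percent; the axis does not start at 0) in each group (x axis). Points are libraries, and bars give the mean ± SD of 3 libraries; shARID1A/B.4.2 libraries sit at 16.5% to 16.7%, and Control libraries at 18.7% to 19.9%.

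Each class of like sites was used as a yardstick, as the log2 ratio of reads in the distal intergenic sites to reads in that class. Against intronic sites at the same 50 to 500 kb, the ratio was 0.618 ± 0.02 in Control (SD, n = 3) and 0.699 ± 0.068 in the combinations (SD, n = 6; exact permutation p = 0.0476, adjusted over 9 ratios 0.429). Against intergenic sites at 3 to 50 kb it was 0.504 ± 0.067 and 0.462 ± 0.078 (exact permutation p = 0.429, adjusted 0.643), and against intergenic sites over 500 kb it was 3.348 ± 0.118 and 3.253 ± 0.094 (exact permutation p = 0.19, adjusted 0.557). None of the 9 ratios passed the adjustment. No single ratio could pass it alone, since 6 libraries against 3 allow no p below 0.0238. These tests therefore cannot decide whether any single class differed from the distal intergenic sites in the read totals.

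After combined silencing, and without matching for accessibility, 10.2% of sites at 3 to 50 kb closed, 9.41% at 50 to 500 kb and 5.45% over 500 kb, against 12.6% of intronic sites at 50 to 500 kb and 4.24% of promoter sites. Opened sites made up 2.56%, 1.45%, 1.48%, 1.11% and 33.4% of these classes in the same order. Within the distal intergenic sites the closed share was 10.3% at 50 to 100 kb, 9.77% at 100 to 200 kb, 9.04% at 200 to 300 kb, 7.52% at 300 to 400 kb and 7.01% at 400 to 500 kb. Median accessibility went the same way, from 0.948 CPM in the nearest bin to 0.799 CPM in the farthest. The closed share was 9.32% upstream and 9.5% downstream of the TSS. The order of the 4 distal classes by closed share held under total counts only, promoter scaling, abundance-trended and GC-content offsets, DESeq2 and the replicate block. It did not hold for ARID1B silencing, with 3.58% closed at 3 to 50 kb and 3.74% at 50 to 500 kb.

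The closed share went up steeply with accessibility. In octiles of mean CPM over all tested sites, 1.95% of the distal intergenic sites closed in the lowest (0.188 to 0.427 CPM) and 42.6% in the highest (from 3.98 CPM), and opened sites went from 0.295% to 7.37%. The highest octile held 6270 distal intergenic sites, of which 2673 closed, with a median log2 change of -0.21 over all of them. In that octile the order of the near and distal classes turned, as 30.0% of intergenic sites at 3 to 50 kb, 41.5% of those over 500 kb and 49.2% of the distal intronic sites closed, while 11.8%, 7.28% and 4.21% opened. It had also turned in the octile below, at 17.6% of sites at 3 to 50 kb and 19.1% of the distal intergenic sites. A higher count gives the test more power, and site length went up with CPM too, from a median of 252 to 1990 bases, so the octiles do not separate accessibility from power or width. Closed sites as a group had a median of 2.31 CPM and 1126 bases, and opened sites 2.47 CPM and 1112 bases, against 0.822 CPM and 686 bases for sites without a call. Closed sites were poorer in GC, with a median of 42.7% against 45.7% for opened sites.

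**Figure D2:**
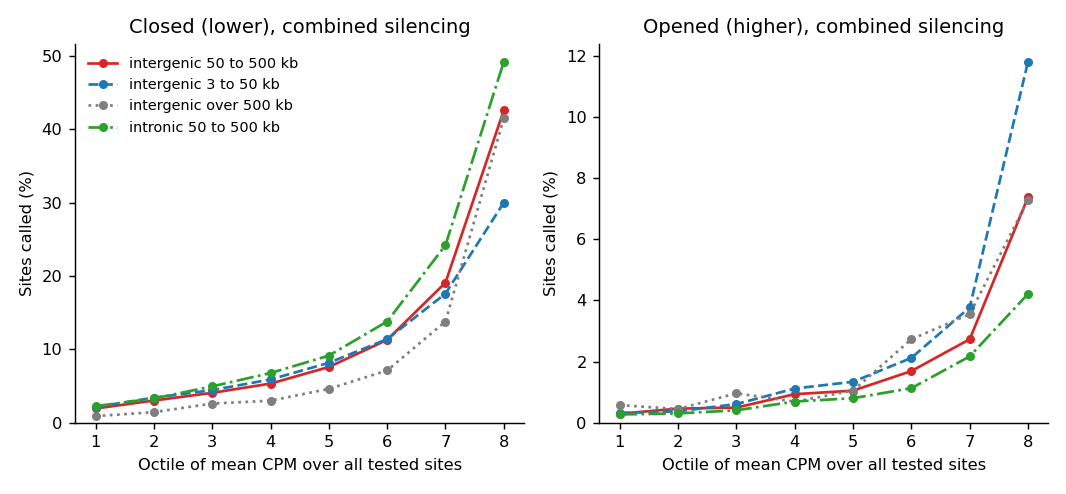
Percent of tested sites closed (left) and opened (right) after combined silencing (y axes) by octile of mean CPM over all tested sites (x axes), for the distal intergenic sites and 3 like classes. All 4 lines go up with CPM, and in the highest octile 42.6% of the distal intergenic sites closed and 7.37% opened.

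Closed sites lay near one another. Of the closed distal sites, 74.0% had another closed distal intergenic site within 50 kb, against 49.1% of all tested ones and 40.2% of the opened ones. Opened sites had an opened neighbour in 28.4% of cases, against 13.6% of all tested sites. Neighbouring sites share copy number and chromatin context, so they are not independent of each other.

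The closed share also differed between chromosomes. It was 25.5% on chromosome 18 (146 of 573 tested), 21.4% on chromosome X, 19.3% on chromosome 22 and 19.1% on chromosome 13, against 6.2% on chromosome 4 (671 of 10827) and 7.34% on chromosome 2. The closed shares of all tested sites on these chromosomes were 23.6%, 18.4%, 13.7%, 18.4%, 7.3% and 8.96% in the same order, and over 23 chromosomes the Spearman correlation of the distal and the all-site share was 0.84, as a description. Chromosome 18 held 7.51 distal intergenic sites per Mb and chromosome 4 held 58.9, but chromosome 19, with 3.79 per Mb, had a closed share of 12%, below the 14.9% of chromosome 1 with 20.4 per Mb. Over 23 chromosomes the Spearman correlation of density and closed share was -0.89, a description in which all chromosomes share the same libraries and the same site calling. The number of sites enters both measures, as it raises the density and divides the closed share. Closed sites per Mb went the other way. They numbered 1.82, 1.6, 1.22 and 3.05 on chromosomes 18, X, 22 and 13, against 3.53 and 3.89 on chromosomes 4 and 2. Median accessibility was 0.864 CPM on chromosome 18 and 0.85 CPM on chromosome 4. The copy number of each chromosome in this line was not analysed here, and its part in the number of called sites was not tested. MYCN is amplified in this line, and how far the amplified stretch reaches was not analysed here. The MYCN region was taken as a fixed window on chromosome 2, 13 to 19 Mb. It held 1001 tested sites with a median of 1.54 CPM. Of these, 60 closed (5.99%) and 33 opened (3.3%). The shares were 9.44% and 1.43% of the distal sites outside the window, and 10.3% and 3.43% of all tested sites.

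**Figure D3:**
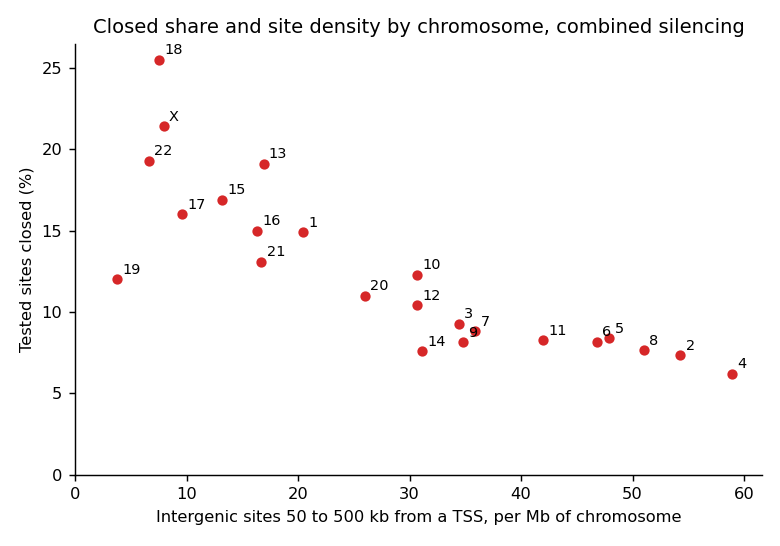
Percent of tested distal intergenic sites closed after combined silencing (y axis) against the number of such sites per Mb (x axis). Each point is 1 of 23 chromosomes, labelled by its name; chromosome 18 lies at 7.51 sites per Mb and 25.5%, and chromosome 4 at 58.9 sites per Mb and 6.2%.

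The sequence of the sites was examined with motifs searched on both strands in the 300 bases around each site centre, of which 10 are described. NFI factors bind a palindromic motif and act at many enhancers. Their motif was present in 450 sites, of which 27.8% closed (against 9.32% of sites without it) and 0 opened. It was rare, in 0.473% of the tested distal sites and in 0.53% of all sites of the set. More common motifs showed smaller contrasts. Sites with the GATA motif AGATAA (18.7% of distal and 16.9% of all sites) closed at 13.5% against 8.48%, and sites with the E-box CATCTG, bound by HAND and TWIST factors (23.2% and 23%), at 13.1% against 8.3%. For the AP-1 motif TGANTCA (11.9% and 10.9%) it was 12.2% against 9.03%, and for the SOX motif ACAATG (16.4% and 14.9%) 10.9% against 9.13%.

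CTCF, which marks insulators and the anchors of chromatin loops, went the other way. Its motif was present in 531 tested distal sites (0.558%, and 0.878% of all sites), of which 14 closed (2.64%, against 9.45% of sites without it) and 48 opened (9.04%, against 1.41%). Under promoter scaling, 24 of these closed and 6 opened, and the closed share stayed below the 13.9% of sites without the motif. The TEAD motif GGAATG (17.4% of distal and 16.9% of all sites), RUNX motif TGTGGT (20.9% and 20.2%) and the MYC-type E-box CACGTG (3.59% and 4.15%) had closed shares of 9.71%, 8.33% and 8.6%, all near that of the distal sites as a whole. NRF1 had 20 matches (0.021% and 0.0264%), of which 0 closed and 4 opened. Within the highest octile of CPM the order was kept for the motifs with the extreme shares, with 65.2% of 46 NFI sites and 7.59% of 79 CTCF sites closed.

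The motifs were compared across libraries as the share of all reads in distal intergenic sites that fell in sites with the motif. The NFI share was 1.97% ± 0.171 (SD, n = 3) in Control and 1.44% ± 0.318 (SD, n = 6) in the combinations, the GATA share 19.3% ± 0.342 and 18.2% ± 0.16, and the share of the E-box CATCTG 24.1% ± 0.112 and 22.8% ± 0.0787. The AP-1 share was 12.3% ± 0.00988 and 11.7% ± 0.235, and the SOX share 16.7% ± 0.128 and 16.1% ± 0.0993. In the other direction, the CTCF share was 0.612% ± 0.015 and 0.757% ± 0.0243, and the NRF1 share 0.0553% ± 0.00112 and 0.0732% ± 0.00583. For each of these motifs the combination and Control libraries did not overlap (two-sided exact permutation p = 0.0238 each, the smallest possible, adjusted over all 12 motifs tested 0.0357). These values pool the 2 combinations, which were not tested separately. The NFI share ran from 1.01% to 1.74% in the combinations, close to the 1.78% to 2.11% of Control at its upper end. Its difference of -0.53 points was -0.586 without shARID1A/B.4.2 replicate 1 and -0.487 without shARID1A/B.2.3 replicate 3. For AP-1 the difference was -0.676 and -0.589 points without the same libraries. Sites with high counts weigh most in such a share. Sites with the NFI motif were 0.473% of the tested distal sites but held 1.97% of these reads in Control. Motif shares were not recomputed without the MYCN region or the 1 percent of sites with the highest counts. The E-box CACGTG missed the threshold (exact permutation adjusted p = 0.0571), as did RUNX (adjusted p = 0.286) and TEAD (adjusted p = 0.881). Among sites of 41.8% to 50.2% GC the NRF1 difference turned to -0.00188 percentage points. With windows of 200 bases NFI missed the threshold (exact permutation adjusted p = 0.0519), and with windows of 200 bases TEAD had a higher share in the combinations, by 0.516 points (exact permutation adjusted p = 0.0357). Where 1 of 4 combination libraries (shARID1A/B.2.3 replicate 3 or any of shARID1A/B.4.2) was left out, 0 motifs passed, since 5 libraries against 3 allow no p below 0.0357 and 9 motifs must then reach it.

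**Figure D4:**
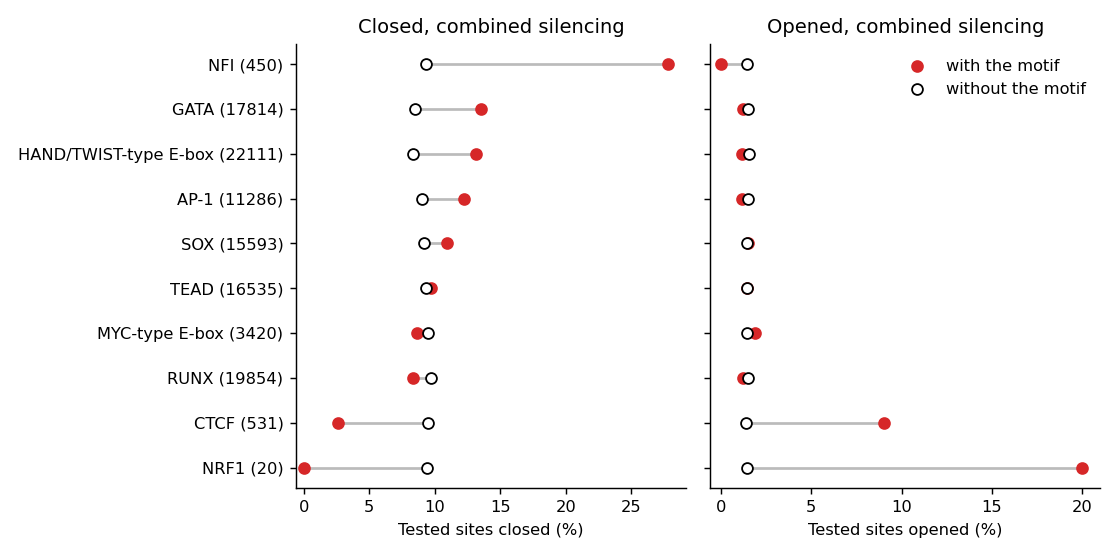
Percent of tested distal intergenic sites closed (left) and opened (right) after combined silencing (x axes), for sites with a motif (filled) and without it (open), by motif (y axis, number of tested sites with the motif in parentheses). Among the motifs shown, NFI has the highest closed share, 27.8%, and CTCF and NRF1 the lowest.

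The largest fall was at the FOXD2 site shown above. FOXD2 encodes a forkhead transcription factor. The site measured 9.82, 9.0 and 8.70 CPM in Control, 0.854, 0.674 and 0.615 CPM under shARID1A/B.2.3, and 1.21, 0.874 and 0.696 CPM under shARID1A/B.4.2. Single silencing gave 1.42 to 2.29 CPM with the ARID1A hairpins, 3.95 to 4.32 CPM with shARID1B.2 and 1.47 to 2.51 CPM with shARID1B.3. Control, single and combined libraries did not overlap. The log2 change was -3.48 after combined silencing (SE 0.14, FDR 5.00e-37), -2.44 after ARID1A silencing (SE 0.13, FDR 9.67e-28) and -1.62 after ARID1B silencing (SE 0.12, FDR 1.74e-20). The FOXD2 site stood in a closed neighbourhood, since 16 of the 17 tested distal sites nearest to this gene closed (chromosome 1, 47507804 to 47711286), with a median log2 change of -1.32.

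The site near SLC10A2, the bile acid transporter of the ileum, had the same order of Control, single and combined silencing. Unlike the FOXD2 site, the SLC10A2 site had a larger log2 fall after ARID1B (-2.0) than after ARID1A silencing (-1.67). It measured 8.61, 8.18 and 8.86 CPM in Control, 1.05, 1.07 and 0.967 CPM under shARID1A/B.2.3, and 0.851, 1.15 and 1.25 CPM under shARID1A/B.4.2, while single silencing gave intermediate values of 1.28 to 3.78 CPM in 12 libraries. The log2 change was -3.01 (SE 0.13, FDR 1.69e-34). At the site near ALDH1A2, an enzyme of retinoic acid synthesis, Control measured 5.0, 3.86 and 4.65 CPM, shARID1A/B.2.3 measured 0.394, 0.395 and 0.791 CPM, and shARID1A/B.4.2 measured 0.538, 0.874 and 0.557 CPM (log2 change -2.97, SE 0.18, FDR 7.13e-26). Here the combinations overlapped the single-silencing libraries, which began at 0.798 CPM.

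Near LOC101928426 (chromosome X, 124255814 to 124256934) Control measured 4.91, 5.71 and 5.29 CPM, the ARID1A hairpins 0.916 to 2.63 CPM, the ARID1B hairpins 0.583 to 0.995 CPM and the combinations 0.484 to 0.92 CPM. The ARID1B and combined libraries overlapped, and the combined change of -2.93 (SE 0.16, FDR 6.46e-29) lay 1.70 above the sum of the single changes (SE 0.25, FDR 4.18e-06). Near DIRC1 (chromosome 2, 188852836 to 188853623) Control measured 5.13 to 5.82 CPM, the ARID1A hairpins 1.95 to 2.96 CPM, shARID1B.2 1.41 to 2.18 CPM, which overlaps the ARID1A hairpins, shARID1B.3 0.722 to 1.13 CPM and the combinations 0.528 to 0.986 CPM (log2 change -2.86, SE 0.16, FDR 3.25e-28). Near the microRNA gene MIR4634 (chromosome 5, 174804866 to 174805928) the log2 change was -2.80 after combined (SE 0.16, FDR 7.82e-27), -2.03 after ARID1A (SE 0.15, FDR 3.63e-19) and -0.90 after ARID1B silencing (SE 0.13, FDR 1.51e-07), and no ARID1A library (at most 1.40 CPM) reached an ARID1B library (2.07 to 3.18 CPM).

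Among the named sites, which were chosen by the size of their change, rises were smaller than falls and started from lower levels. The site near MIR3194, also a microRNA gene, measured 0.337, 0.452 and 0.681 CPM in Control, 2.56, 1.86 and 2.15 CPM under shARID1A/B.2.3, and 1.84, 1.29 and 1.30 CPM under shARID1A/B.4.2 (log2 change 1.83, SE 0.24, FDR 1.41e-09). It rose after ARID1A silencing (log2 change 1.59, SE 0.25, FDR 9.41e-07), while the ARID1B hairpins differed, with shARID1B.3 within the Control range at 0.396 to 0.546 CPM and shARID1B.2 above it at 0.947 to 1.38 CPM. Near SLITRK6, a neuronal transmembrane protein, Control measured 0.20 to 0.674 CPM and the combinations 0.928 to 1.93 CPM (log2 change 1.57, SE 0.26, FDR 8.61e-07). Near LOC102723769 (chromosome 22, 11571470 to 11572565) it was 0.481 to 0.616 and 0.854 to 1.93 CPM (log2 change 1.44, SE 0.25, FDR 2.00e-06). These 3 sites have few reads in Control.

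The remaining 3 rises followed particular hairpins. At the tandem repeat near LOC102724847, Control measured 1.73, 1.31 and 1.36 CPM, shARID1A/B.2.3 measured 2.89, 3.72 and 3.12 CPM, and shARID1A/B.4.2 measured 7.48, 6.72 and 8.53 CPM (averaged log2 change 1.77, SE 0.16, FDR 5.10e-16). Among single hairpins, shARID1A.4 (3.34 to 4.45 CPM) was above shARID1A.2 (1.71 to 2.63 CPM), and shARID1B.2 (3.32 to 5.34 CPM) above shARID1B.3 (1.37 to 1.84 CPM). By their names, shARID1A.4 and shARID1B.2 are the hairpins of shARID1A/B.4.2. The same order without overlap was seen near MANEA-AS1 (chromosome 6, 95296267 to 95297371), with 1.80 to 2.26 CPM in Control, 3.47 to 3.88 CPM under shARID1A/B.2.3 and 8.11 to 11.6 CPM under shARID1A/B.4.2, and 6.13 to 6.64 CPM with shARID1A.4 against 2.63 to 3.29 CPM with shARID1A.2. It was seen again near LOC102606466 (chromosome 20, 12594229 to 12595170), with 1.68 to 2.17, 3.48 to 3.95 and 6.26 to 7.84 CPM in Control and the combinations. This order was noticed after the values were seen and was not tested.

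**Figure D5:**
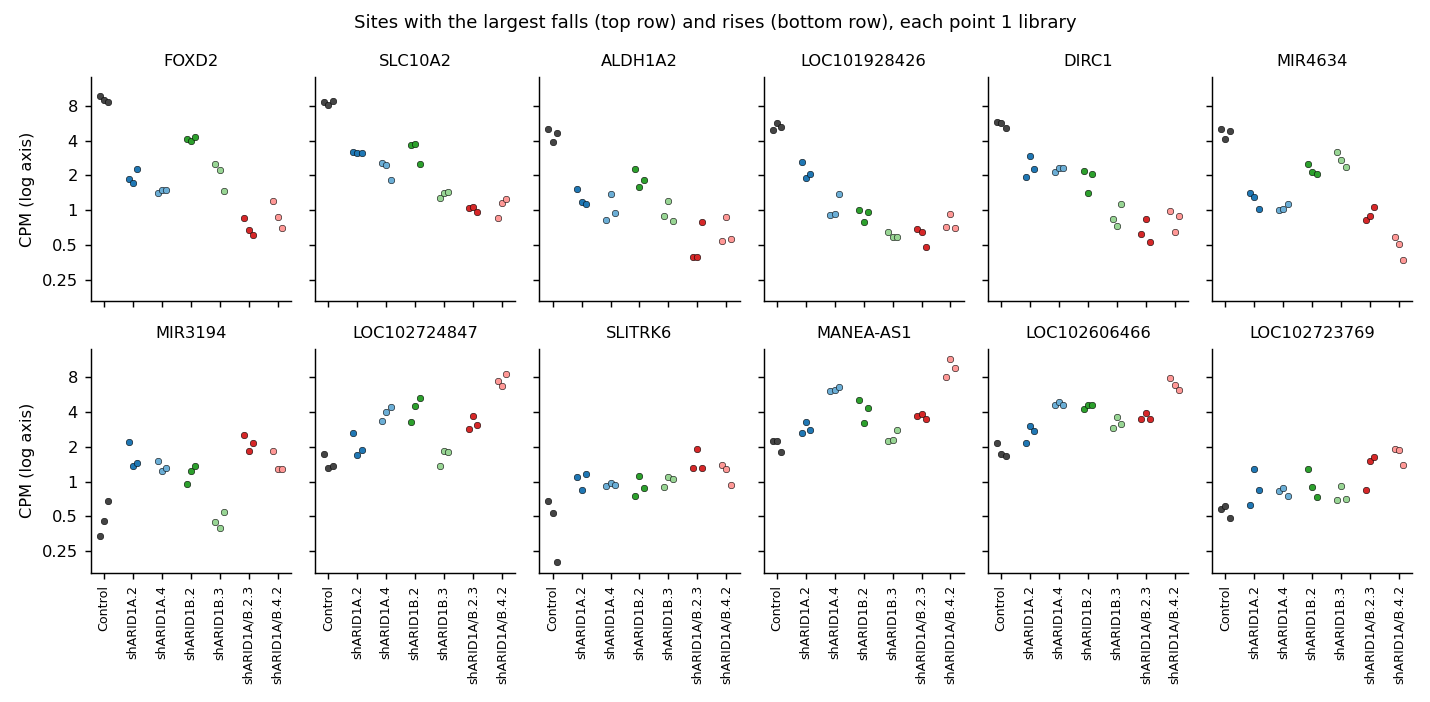
Accessibility in CPM (y axes, log scale) of the 6 distal intergenic sites with the largest falls (top) and the 6 with the largest rises (bottom), named by nearest gene, in each of 7 groups (x axes). Each point is 1 library; every combination library lies below every Control library in the top panels and above it in the bottom ones, by the rule that chose the sites.

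The most accessible sites, outside the MYCN region, behaved otherwise. The site near CDON, a co-receptor of hedgehog signalling (chromosome 11, 126111336 to 126116337), measured 158, 147 and 149 CPM in Control, 113, 105 and 115 CPM under shARID1A/B.2.3 and 129, 128 and 127 CPM under shARID1A/B.4.2 (log2 change -0.35, SE 0.06, FDR 4.73e-06). The sites near ANKRD26P1 (chromosome 16, 46386884 to 46391449) and LOC102724523 (chromosome 16, 34581249 to 34583844), which lie on either side of the centromere, rose by a log2 change of 0.70 (SE 0.07, FDR 2.37e-13) and 0.73 (SE 0.08, FDR 3.09e-13). Control measured 84.7, 108 and 85.0 CPM at the first, and the combinations 141 to 186 CPM. The sites near LOC389831 and LOC283788, on unplaced contigs, and TMEM18 had log2 changes of 0.13, 0.14 and 0.15 (FDR 0.127, 0.157 and 0.149), which turned to -0.37, -0.25 and -0.18 with abundance-trended offsets. CPM is not divided by site length, and sequence on contigs and beside centromeres often has near-identical copies elsewhere, so these levels are uncertain.

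Genes of the adrenergic programme were followed through the distal sites nearest to them. Of 201 tested sites near 12 of 22 listed regulators, 38 closed (18.9%, against 9.41% of distal and 10.3% of all tested sites) and 5 opened, and 10 genes had a closed site. The difference in closed share was not tested, and the sites were not matched for accessibility. The median log2 change was -0.06, which was -0.30 under promoter scaling and 0.01 with abundance-trended offsets, and closed sites outnumbered opened ones under each scaling. The most accessible site near TFAP2B, a neural crest transcription factor with 50 tested sites of which 9 closed, lay 114232 bases away (chromosome 6, 50935184 to 50937328). It measured 19.5, 23.6 and 20.3 CPM in Control, 4.89, 5.37 and 5.36 CPM under shARID1A/B.2.3, and 7.39, 8.38 and 8.63 CPM under shARID1A/B.4.2 (log2 change -1.70, SE 0.09, FDR 2.68e-30). Hairpin shARID1A.4, at 18.8 to 19.3 CPM, lay just below the Control range there, whereas shARID1A.2 measured 8.38 to 8.94 CPM.

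The site 97808 bases from MYCN, the amplified oncogene of this line (chromosome 2, 15841893 to 15844585), measured 23.4, 21.1 and 21.8 CPM in Control, 9.91, 9.25 and 10.2 CPM under shARID1A/B.2.3 and 13.1, 13 and 12.8 CPM under shARID1A/B.4.2. It fell by 0.98 on the log2 scale (SE 0.08, FDR 3.28e-18), and by 0.90 after ARID1A silencing alone (SE 0.08, FDR 2.14e-15). It was 1 of 2 closed among 21 tested sites near MYCN. No site near SOX11 closed (0 of 22), and the most accessible one had a log2 change of -0.14 (SE 0.13, FDR 0.52). The site near ZNF536 had a log2 change of 0.27 (SE 0.08, FDR 0.00461), a call that was lost under promoter scaling (0.03), abundance-trended offsets (0.05), GC-content offsets (0.21) and without any 1 of 7 libraries (0.23 to 0.29), namely each Control and replicates 1 and 3 of both combinations. Chosen after their counts were seen, EYA1 with 7 closed of 14, ISL1 with 4 of 15 and DACH1 with 5 of 18 added to the closed sites.

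Of 117 tested sites near 7 of 24 listed mesenchymal regulators, 7 closed (5.98%, against 9.41% of distal and 10.3% of all tested sites, a difference that was not tested) and 2 opened, with a median log2 change of 0.10, which was -0.13 under promoter scaling. Near TBX18, a T-box transcription factor, 5 of 51 sites closed, and the most accessible one (chromosome 6, 84997589 to 84999101) went from 12.7, 15.2 and 12.4 CPM in Control to 3.84, 5.20 and 3.87 CPM under shARID1A/B.2.3 and 4.70, 3.96 and 3.76 CPM under shARID1A/B.4.2 (log2 change -1.66, SE 0.10, FDR 9.20e-25). The site 51079 bases from SNAI2, a zinc finger regulator of mesenchymal identity, went the other way, from 8.81, 9.08 and 8.94 CPM to 9.65, 10.4 and 10.1 CPM and to 14.0, 14.4 and 13.7 CPM (log2 change 0.41, SE 0.09, FDR 4.10e-04). By combination, the SNAI2 site was called with shARID1A/B.4.2 (log2 change 0.65, edgeR FDR 9.21e-07) and not with shARID1A/B.2.3 (0.17, FDR 0.288). The averaged call was lost under promoter scaling (0.17). The most accessible sites near PRRX1 and GLIS3 had log2 changes of 0.06 (SE 0.14, FDR 0.831) and 0.10 (SE 0.15, FDR 0.715), and their libraries overlapped those of Control.

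Among adhesion genes, 33 of 270 tested sites near 16 of 41 genes closed (12.2%, against the same 9.41% and 10.3%, not tested) and 3 opened, with a median log2 change of 0.06, or -0.17 under promoter scaling. The study singled out integrins and cadherins in these libraries, so this count is no independent evidence. Near CDH6, a cadherin of neural crest cells, 11 of 70 sites closed, yet the most accessible one measured 3.27, 2.92 and 4.13 CPM in Control and 3.13 to 4.41 CPM in the combinations (log2 change 0.13, SE 0.14, FDR 0.59). CDH10, CDH9 and CDH12 each had 1 closed site, of 42, 35 and 30, and the log2 changes of their most accessible sites were -0.13, 0.29 and -0.46 (FDR 0.583, 0.127 and 0.0173). The CDH12 site passed under promoter scaling, at -0.70. Sites near ITGA6, an integrin subunit that binds laminin, closed at 6 of 8, a gene picked after its count was seen.

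Axon guidance genes, which steer growing neurites, had the largest number of distal sites among the lists, with 588 tested sites near 23 of 31 genes. Of these, 65 closed (11.1%, against 9.41% of distal and 10.3% of all tested sites, not tested) and 6 opened, with a median log2 change of 0.06 that was -0.18 under promoter scaling. Of the ephrin receptor genes, EPHA3 had 0 closed and 1 opened of 78 sites, EPHA7 1 closed and 1 opened of 75, and EPHA4 4 closed and 2 opened of 36. The most accessible sites near EPHA3, EPHA7 and the secreted guidance factor SLIT2 had log2 changes of 0.14, 0.32 and 0.01 (FDR 0.454, 0.0665 and 0.958), and the EPHA7 site passed at 0.47 with abundance-trended offsets. The most accessible site near SEMA3D, a secreted semaphorin, measured 41.2, 41.2 and 38.9 CPM in Control and 38.3 to 51.3 CPM in the combinations (log2 change 0.15, SE 0.07, FDR 0.152), while 13 of 61 sites near this gene closed. Chosen after their counts were seen, PLXNA2 (9 of 25) and NRP2 (5 of 12), which encode semaphorin receptors, had closed shares above that of the list.

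Genes of the remodeller itself were the last list. Of 90 tested sites near 6 of 24 subunit genes of BAF, PBAF and ncBAF, 11 closed (12.2%, against 9.41% of distal and 10.3% of all tested sites, not tested) and 3 opened, with a median log2 change of 0.01, or -0.22 under promoter scaling. Near SS18, a BAF subunit, 5 of 8 sites closed, and the most accessible one, 262846 bases away (chromosome 18, 25827099 to 25828427), went from 6.93, 5.34 and 6.25 CPM to 2.33, 3.07 and 2.24 CPM under shARID1A/B.2.3 and 3.90, 3.13 and 3.29 CPM under shARID1A/B.4.2 (log2 change -1.04, SE 0.12, FDR 4.22e-11). The most accessible site near ARID1B, 90557 bases away, measured 27.1, 26.3 and 26.5 CPM in Control and 31.2 to 35.1 CPM in the combinations (log2 change 0.30, SE 0.08, FDR 0.00214). That call was lost without any 1 Control library (0.29 to 0.31), under promoter scaling (0.06) and with abundance-trended offsets (0.14). The sites near SMARCA2, an ATPase, and BRD7, a PBAF subunit, had log2 changes of -0.02 (FDR 0.93) and -0.28 (FDR 0.0182), and the BRD7 site passed at -0.52 under promoter scaling, -0.36 with GC-content offsets and -0.27 with abundance-trended offsets or total counts only.

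Genes were also ranked by the distal sites nearest to them. Over all tested distal sites 9.41% closed and 1.45% opened, beside 10.3% and 3.43% of all tested sites. Among 2423 genes with at least 10 tested distal sites, the highest closed shares were near FOXD2 (16 of 17), MID1IP1 (8 of 10), UBE2E1 (15 of 20), LOC101927995 (8 of 11) and LOC101928819 (12 of 17), and none of these 5 had an opened site. Their median log2 changes were -1.32, -1.38, -1.12, -1.41 and -0.89. The 5 genes with the most tested distal sites had few closed ones, with 7 of 214 near AC022311.1, 1 of 211 near MIR548AD, 1 of 199 near PABPC1P2, 1 of 178 near RP11-946L20.2 and 4 of 166 near LOC101928662. These counts are given without a test, and a ranking over so many genes picks out extreme shares.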

How the data were processed

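ATAC-seq was performed in SK-N-BE(2) cells 72 h after transduction, in 7 groups of 3 libraries. The authors aligned reads to GRCh38 and deposited raw read counts per library in 367900 consensus sites, which came from peaks of merged replicates. HOMER annotated them with the distance to the TSS in bases, and 192 sites had no annotation. Not given in the sources used here are the aligner, the peak caller, the handling of multi-mapping reads and any Tn5 shift. Normalized counts and DESeq2 fold changes and p-values from the authors stand in the same tables and were left out. The 15 copies of Control columns were identical to each other.

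All tests used the deposited raw counts, in edgeR 4.0.16 under R 4.3.3 (quasi-likelihood test, TMM scaling, filterByExpr with a minimum count of 10, all groups in 1 model, Benjamini-Hochberg adjustment over 357029 sites; closed or opened at FDR under 0.01). CPM used the TMM-scaled totals. A change shared by most sites is removed by TMM. Library totals ranged from 16140029 to 44472230 reads in sites. Read shares, read ratios and motif shares were compared between groups of libraries by two-sided exact permutation tests at a threshold of 0.05 after adjustment (Python 3.11.15, numpy 2.4.6, scipy 1.17.1). Both scripts were tested on simulated data. Alternatives were total counts only, TMM on promoter sites, offsets trended on abundance or GC content, DESeq2 1.42.0, no filter, other thresholds, only the compared groups, a replicate block and each library left out; motif windows of 200 and 500 bases and sites of 41.8% to 50.2% GC were also tried. Read shares were recomputed over tested sites only, without the MYCN region and without the 1 percent of sites with the highest counts.

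Sites and motif windows were read from GRCh38, and GENCODE v44 was laid over them. Named sites were the 6 largest falls and 6 largest rises (called on average and in each combination separately, mean of at least 1 CPM, no overlap of combination and Control libraries, 1 per gene), the 6 with the highest CPM outside chromosome 2, 13 to 19 Mb, and, for each of 5 gene lists, the most accessible site of the 4 genes with the most tested sites. For genes, the 5 with the most tested sites and the 5 with the highest closed share among those with at least 10 were named. The members and the lists were chosen with earlier results of these data known. Of 12 motifs tested, 2 are not reported here. Coordinates are 1-based.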

Additional observations from a re-analysis of the deposited data

Results flagged for a closer look

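Adding up the 2 single-subunit log2 changes did not give the combined change, by the edgeR test of that difference itself, at 297 distal intergenic sites where it was lower and at 167 where it was higher (FDR under 0.01). These were 0.312% and 0.175% of the tested distal sites, against 0.376% and 0.14% of all tested sites, and under promoter scaling they numbered 127 and 277. Among the named sites only the one near LOC101928426 was among them, with a combined change 1.70 above the sum on the log2 scale.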

How the results depend on the processing

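Counts of closed sites kept to within 1.5 times under most alternatives, and counts of opened sites did not. In the order combined silencing, shARID1A/B.2.3, shARID1A/B.4.2, ARID1A, ARID1B, combined against single silencing and departure from the sum, a log2 change of at least 1 left 4368, 4808, 4034, 1373, 1017, 427 and 74 lower sites and 236, 719, 276, 61, 90, 39 and 68 higher ones. At FDR under 0.05 the higher sites numbered 3585, 6249, 2216, 1146, 1320, 3181 and 496 in that order, and the lower ones 5386 for ARID1B and 658 for the departure. Scaled on promoter sites, higher sites numbered 215, 738, 212, 83, 221, 265 and 277, and lower ones 13428 for shARID1A/B.4.2, 8495 for ARID1A, 5599 for ARID1B and 127 for the departure. Abundance-trended offsets gave 2348 (combined), 3888 (shARID1A/B.2.3), 1584 (against single) and 288 (departure) higher sites. GC-content offsets gave 2230, 3643 and 1327 for the first 3 of these, and DESeq2 759, 1043, 303 and 102 for all 4. With only the compared groups, 1137 opened with shARID1A/B.2.3. The cause was not tested for any of these, apart from the thresholds and the smaller number of libraries.

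Leaving out 1 library at a time gave 791 to 1414 opened sites for combined silencing, 1218 to 2443 for shARID1A/B.2.3, 275 to 545 for ARID1A, 356 to 758 for ARID1B, 332 to 1046 higher sites against single silencing and 159 to 320 sites below the sum. Motifs with a lower share numbered 0 to 7 and with a higher share 0 to 3, as the smaller groups allow fewer arrangements. Among sites of 41.8% to 50.2% GC, 1 motif had a higher share, and NRF1 turned to -0.00188 points. TEAD turned to 0.516 points with 200 bases. Abundance-trended offsets turned the sites near LOC389831 (-0.37), LOC283788 (-0.25) and TMEM18 (-0.18). Of 1102 refits of named sites, 1074 kept direction and side of the threshold.

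Deviations of same-numbered libraries of different groups correlated at -0.311 to 0.506, with 14 of 63 pairs over 0.1 and a median of 0.012. Among pairs with different numbers, 19 of 126 were over 0.1, with a median of -0.007. All 3 same-numbered pairs were over 0.1 for Control with shARID1A/B.2.3 (0.194, 0.506 and 0.207) and for no other 2 groups. Control replicate 3 with shARID1A/B.2.3 replicate 1 (0.237) and Control replicate 1 with shARID1A/B.2.3 replicate 3 (0.158) were over 0.1 too. The other crossed pairs, each with a replicate 2, lay at -0.353 to -0.28. The replicate numbers may pair the libraries there, but these values do not settle it. With the number as a block, 9122 distal sites closed and 1522 opened after combined silencing, 8493 and 2573 with shARID1A/B.2.3 (8313 and 2405 without the block), and no count moved by over 1.5 times. The BRD7 site passed at -0.28 (edgeR, FDR 0.00984). Exact tests within replicate numbers cannot go below p = 0.0741, so they say nothing of the motifs. Motif counts were likewise not computed without a Control library, where no p can go below 0.0714, and the departure uses all groups, so it has no fit with fewer. Read shares and read ratios stayed on the same side of the threshold with only tested sites, without the MYCN region and without the 1 percent of sites with the highest counts.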
